A study of Mus musculus with 8 samples.

Results

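The measurements concerned 10 genes of mucous glands and gastric mucous cells, read in the mouse proximal small intestine with and without Pdx1 in the gut epithelium. The genes were taken from a list by symbol, and every probe set that the array annotation pairs with that symbol alone was kept. This gave 11 probe sets for 9 of the 10 genes, among 18193 genes with such a probe set in all. Gkn1 and Gkn3 had 2 probe sets each, the other genes 1. Muc6, the gel-forming mucin of gland mucous cells, has no probe set under this rule and was not analysed here.

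Total RNA came from the 5 cm of small intestine next to the pylorus of 8 male mice aged 6 months, all on a diet with 4.5% fat and all homozygous for a floxed Pdx1 allele in which exon 2, encoding the homeodomain, lies between loxP sites. In the 4 knockout mice (KO) a Cre transgene driven by the villin 1 promoter removed that exon in gut epithelium. The 4 controls (Ctrl) carried the floxed alleles and their genotype names no Cre, so an effect of Cre itself cannot be told apart from that of the deletion. The labels call every mouse a brother from the same litter. Each array read whole tissue, so for every value below fewer cells of a type and less RNA per cell cannot be told apart.

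Mucous cells of the stomach and duodenum fall into classes with different products. Surface, or pit, cells of the stomach secrete the mucin Muc5ac together with the trefoil peptide Tff1 and the gastrokines Gkn1 and Gkn2. Mucous neck cells, pyloric gland cells and the Brunner glands, submucosal glands of the duodenum just beyond the pylorus, secrete Muc6 together with the trefoil peptide Tff2. Trefoil peptides are small, protease-resistant proteins that are released with mucins and aid repair of the mucosa. Pdx1 itself is made in the pyloric antrum, the duodenum and the pancreas.

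Values are the deposited log2 levels per probe set, whose lowest and highest were 2.55 and 14.83, and the median of an array was 5.23 to 5.27. A level says how bright 1 probe set is, and levels of different probe sets were not ranked against each other. The deletion was visible in the arrays: the brighter Pdx1 probe set read 5.93 ± 0.25 in KO intestines and 8.52 ± 0.36 in Ctrl intestines (SD, n = 4 each), without overlap (adjusted p = 4.16e-04 in limma). Whether that probe set lies in the removed exon is not given in the sources used here.

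None of the measured mucous genes passed the test between KO and Ctrl intestines, and in each the values of the groups overlapped. All 11 probe sets had lower means in KO intestines, with log2 changes (KO minus Ctrl) from -0.65 for Muc1 to -0.019 for Dmbt1 and a median of -0.32. Over all 45037 probe sets 49.99% were below 0, with a median of 0. The probe sets are not independent of each other, since several followed the same samples, as described below. Of the 11, 0 were called lower and 0 higher at an adjusted p under 0.05 in limma, while over all probe sets 0.0377% were called lower, 0.00444% higher and 0.0422% in either direction. Their adjusted p-values ran from 0.676 to 0.988. At an unadjusted p under 0.05 there was 1, Egf, where 7.13% of all probe sets passed. In an ordinary linear model 0 passed after adjustment and 0 unadjusted. In 0 of 11 were the KO and Ctrl values apart, against 4.43% of all probe sets, 2.33% with KO below and 2.1% with KO above.

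**Figure D1:**
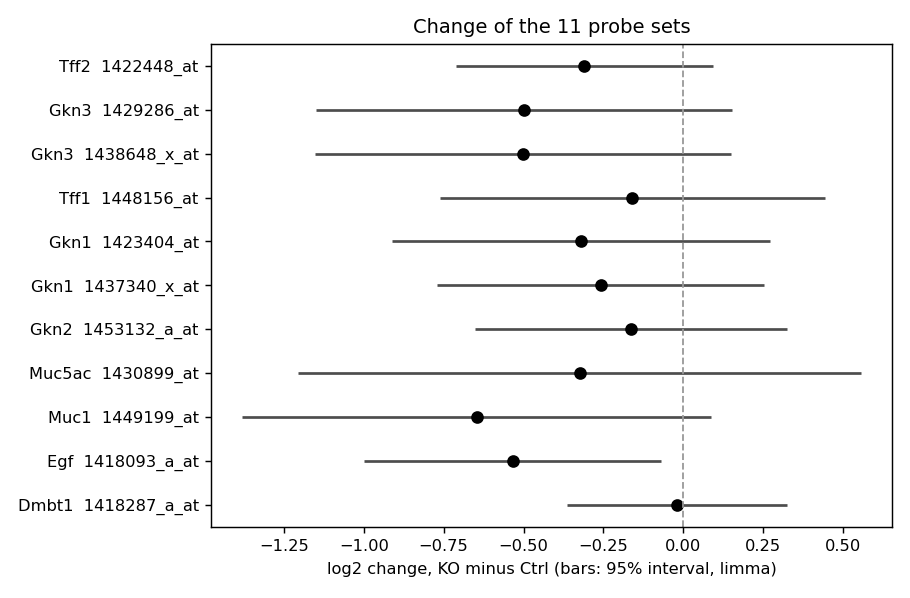
Log2 change, KO minus Ctrl, of each of the 11 probe sets (points) with its 95% interval from limma (bars), and a dashed line at 0. Every point lies left of 0, and only the interval of Egf, from -0.998 to -0.07, does not cover 0.

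Tff2, the trefoil peptide of the glands, had a level of 13.57, 14.28, 13.38 and 14.10 in KO samples 1 to 4, against 13.94, 14.17, 14.18 and 14.29 in Ctrl samples 1 to 4. KO 2 and KO 4 lay within the range of the controls, and KO 1 and KO 3 below every control. The mean was 13.83 ± 0.43 in KO intestines and 14.14 ± 0.15 in Ctrl intestines (SD, n = 4 each), and KO minus Ctrl was -0.31 on the log2 scale (standard error 0.18; adjusted p = 0.762 in limma). The 95% interval of the KO to Ctrl ratio ran from 0.611 to 1.07, so KO levels under 0.611 of the Ctrl level lay outside it.

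Gkn3, a gastrokine of mucous neck cells in the mouse, followed the same samples. Its brighter probe set read 12.79, 13.83, 12.31 and 13.69 in KO samples 1 to 4, against 13.42, 13.57, 13.71 and 13.90 in Ctrl samples 1 to 4. KO 1 and KO 3 were again the only values below all controls. The log2 change was -0.50 with a standard error of 0.29 (adjusted p = 0.765 in limma), and the second probe set gave -0.50 as well (adjusted p = 0.762). The 2 probe sets varied together across the 8 samples (r = 0.998 after each group's mean was subtracted). Without KO 3 the change of the brighter probe set was -0.22, and without KO 2 it was -0.72.

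Some other genes of gland mucous cells showed the low values in the same 2 knockout samples. KO 3 held the lowest value of all 8 and KO 1 the next lowest in 4 of 17 measured genes of the mucous neck and gland list, against 2.78% of all genes. These were Aqp5, a water channel of secretory glands, A4gnt, the enzyme that caps the glycans of Muc6 with N-acetylglucosamine, the secreted protein Wfdc2 and the chloride channel Cftr. This order of samples was chosen after the values of Tff2 and Gkn3 were seen. It was not limited to gland genes: Muc15 and Muc20, mucins outside that list, had it too. So did Reg1 of inducible epithelial defence and Gcnt3 and B4galnt2 of O-glycan synthesis. It held in 1 of 14 parietal and chief cell genes, Kcne2, and in 0 of 15 smooth muscle genes and 0 of 19 exocrine pancreas genes. Aqp5 read 7.12, 7.999, 6.88 and 7.82 in KO samples 1 to 4, against 7.85, 8.04, 8.17 and 8.14 in Ctrl samples 1 to 4. Its change was -0.59 (adjusted p = 0.660 in limma). A4gnt read 7.51 ± 0.63 in KO intestines and 8.01 ± 0.30 in Ctrl intestines (SD, n = 4 each), a change of -0.50 (adjusted p = 0.744). In the whole list 0 genes were called lower, 0 higher and 17 neither, with 14 below 0 and a median change of -0.17, where over all genes 48.4% were below 0 with a median of 0.0046 and 0.066% were called. The bicarbonate cotransporter Slc4a4 had -0.32 (adjusted p = 0.599), the carbonic anhydrase Car2 -0.54 (0.618) and the transcription factor Sox9 -0.32 (0.684).

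**Figure D2:**
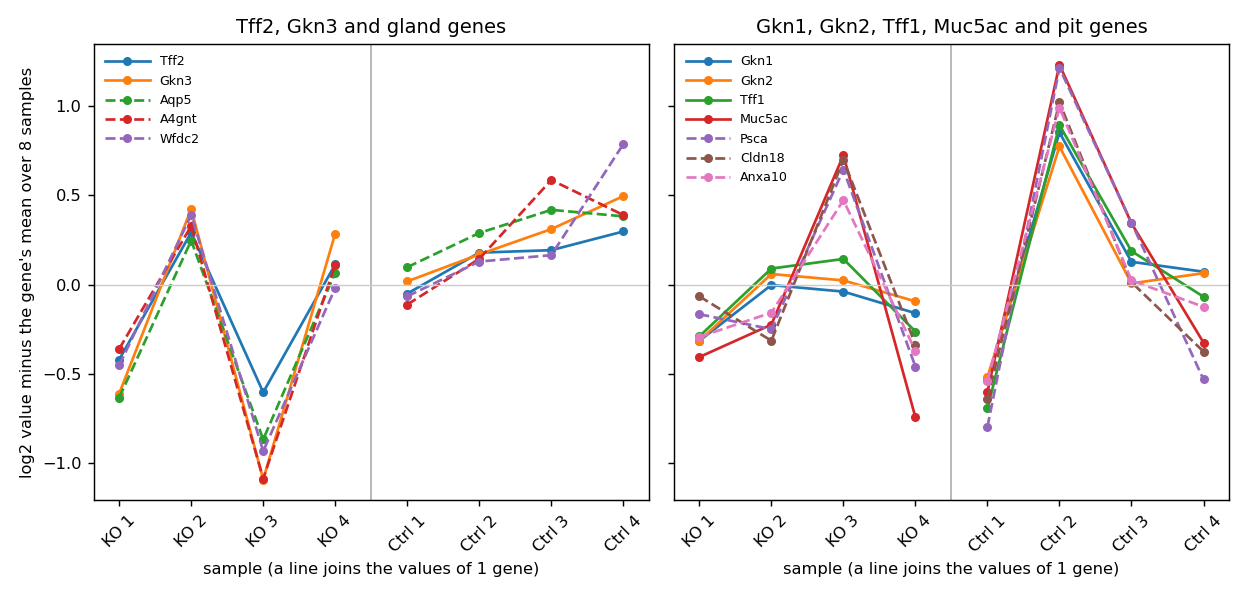
Log2 value of each gene minus its mean over the 8 samples, by sample, KO left and Ctrl right of the grey line; solid lines are genes of the studied list and dashed lines other genes. In the left panel Tff2, Gkn3, Aqp5, A4gnt and Wfdc2 are lowest in KO 3 and next lowest in KO 1, and in the right panel Gkn1, Gkn2, Tff1, Muc5ac, Psca, Cldn18 and Anxa10 are highest in Ctrl 2.

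KO 1 and KO 3 also had the highest smooth muscle scores. The score, the mean deviation of 15 smooth muscle genes from their means over the 8 samples, was 0.26, -0.0026, 0.24 and -0.07 in KO samples 1 to 4, against -0.16, -0.10, -0.03 and -0.14 in Ctrl samples 1 to 4. All 15 genes were above 0 and 0 were called. With group means subtracted, the score ran opposite to Tff2 (r = -0.78, exact permutation p = 0.0248, rho = -0.79 with p = 0.0279) and to Gkn3 (r = -0.81, p = 0.0153, rho = -0.79 with p = 0.0279). After adjustment over the 27 relations between 9 genes and 3 scores these p-values were 0.134 and 0.112, so neither passed. Without KO 1 and KO 4, r was -0.73 for Tff2 and -0.78 for Gkn3. These 2 samples lay farthest from the median score once group means were subtracted, and KO 3 stayed in. The part of muscle content in the low values was not tested.

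The nearest matches to Tff2 across the 8 samples, with group means subtracted, were sought among 12224 other genes at or above the median brightness. Adam15 came first (r = 0.991), then Aqp5 (0.989), Slc17a9 (0.984), Gkn3 (0.984) and Golm2 (0.983). These are the highest of many correlations over few samples, given as a description. Of these genes Adam15 and Slc17a9 differed little between the groups, with changes of -0.04 and -0.01.

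The products of gastric surface cells took another order over the samples. Gkn1 read 12.65, 12.96, 12.92 and 12.80 on its brighter probe set in KO samples 1 to 4, against 12.43, 13.82, 13.09 and 13.04 in Ctrl samples 1 to 4. All KO values lay above Ctrl 1 and below the other 3 controls. The means were 12.83 ± 0.14 in KO intestines and 13.09 ± 0.57 in Ctrl intestines (SD, n = 4 each), and the difference of -0.26 had a standard error of 0.23 (adjusted p = 0.850 in limma). The dimmer probe set gave -0.32 (adjusted p = 0.838), and the pair correlated across samples (r = 0.995). Without Ctrl 2 the brighter probe set's change was -0.02.

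Gkn2, which in humans is known to pair with TFF1 through a disulphide bond, read 13.18, 13.56, 13.52 and 13.40 in KO samples 1 to 4. In Ctrl samples 1 to 4 it read 12.98, 14.27, 13.50 and 13.56. Its change was -0.16 (adjusted p = 0.909 in limma). Tff1 read 12.57, 12.96, 13.01 and 12.60 in KO samples 1 to 4, against 12.17, 13.76, 13.05 and 12.80 in Ctrl samples 1 to 4. Both genes had their lowest value in Ctrl 1 and their highest in Ctrl 2, and the change of Tff1 was -0.16 (adjusted p = 0.933). Without Ctrl 2 the sign turned for both, to 0.07 for Gkn2 and 0.11 for Tff1.

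Muc5ac, the gel-forming mucin of the stomach surface, read 7.49, 7.67, 8.62 and 7.15 in KO samples 1 to 4. The Ctrl samples 1 to 4 read 7.30, 9.13, 8.24 and 7.57. KO 3 and Ctrl 2 were thus the high sample of each group. The change was -0.32 with a standard error of 0.40 (adjusted p = 0.897 in limma), the widest interval of the 11, and without Ctrl 2 it was 0.03. With the parietal and chief cell score as a covariate it was -1.91 (adjusted p = 0.0748 in limma), far from -0.32 but still not called. That score separates the groups, at -0.12 to -0.02 in KO samples and -0.01 to 0.08 in Ctrl samples. In this fit the score and the group therefore cannot be cleanly told apart. Muc5ac ran opposite to that score with group means subtracted (r = -0.924, exact permutation p = 0.00464, rho = -0.667 with p = 0.0831), and after adjustment over the same 27 relations the p of r was 0.112. Without KO 3 and Ctrl 2, r was -0.535, and over all 8 samples with group means kept it was -0.332. KO 3 and Ctrl 2 lay farthest from the median score once group means were subtracted.

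**Figure D3:**
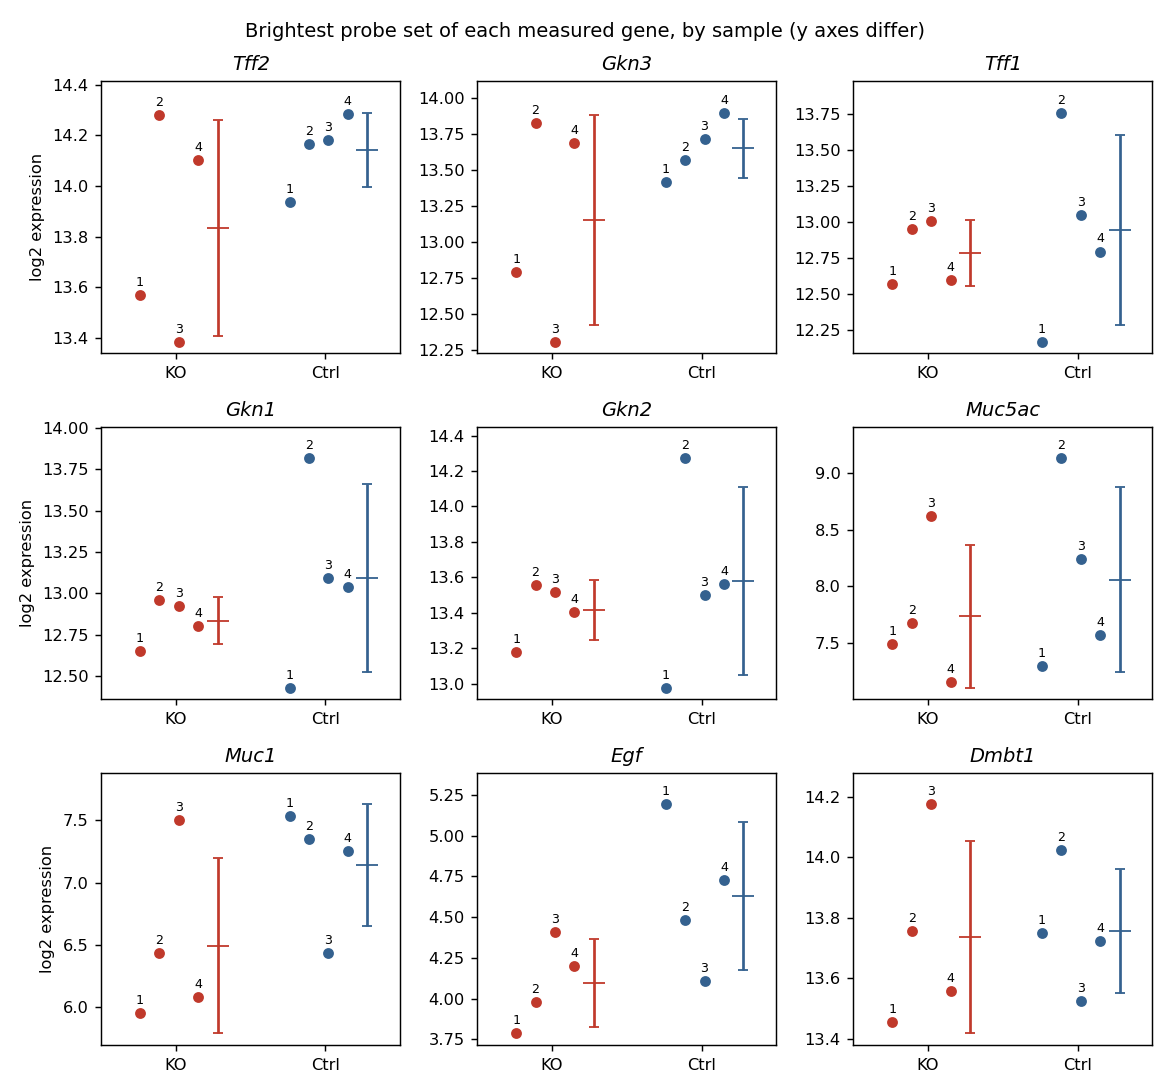
Log2 expression of the brightest probe set of each of the 9 measured genes by sample, KO left and Ctrl right in each panel, with replicate numbers above the points and the mean ± SD beside them; the y axes differ. For Tff2 and Gkn3 the KO samples split, with 1 and 3 low, and for Tff1, Gkn1, Gkn2 and Muc5ac Ctrl 2 is the highest of all samples.

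In the controls this order was shared by some other stomach genes, and by some genes of other lists. Ctrl 2 was the highest and Ctrl 1 the lowest control in 5 of 14 measured genes of the gastric pit and pyloric list, against 9.98% of all genes, again an order chosen after the values were seen. They were the protease Ctse, the tight junction protein Cldn18, and Anxa10, Psca and Tspan8. Among 6 measured genes of antral endocrine cells 3 had it, Gast, Ghrl and Pax6, while Sst, Chga and Cckbr did not. Outside the stomach lists it held in 1 of 17 goblet cell genes, 1 of 15 smooth muscle genes and 0 of 19 exocrine pancreas genes. It held in 1 of 17 genes of the gland list and 2 of 14 of the parietal and chief cell list. In lists that were not counted, it was also seen in Saa1, Saa3, Lcn2 and Sftpa1 of inducible epithelial defence. Cd3g and Cd8a of immune cells and Fut2, C1galt1 and Galnt2 of O-glycan synthesis had it too. So did Tgfa and Adam17 of the Egf ligand and receptor lists, and the transcription factors Six2, Nkx6-3 and Foxa1. The order was thus not particular to stomach genes. Gast, which encodes gastrin, read 7.67, 6.91, 7.94 and 7.93 in KO samples 1 to 4, against 6.52, 10.75, 8.45 and 7.53 in Ctrl samples 1 to 4. Psca, a surface protein of gastric pit cells, read 8.59 ± 0.48 in KO intestines and 8.71 ± 0.91 in Ctrl intestines (SD, n = 4 each; change -0.12, adjusted p = 0.970 in limma). The gastric pit and pyloric list held 0 called genes in either direction, 10 of 14 below 0 and a median of -0.03. Sult1c2, a sulfotransferase, had the smallest p in it, with values of 7.23, 7.27, 7.70 and 7.36 in KO samples 1 to 4, against 8.50, 8.61, 7.95 and 8.60 in Ctrl samples 1 to 4. The groups did not overlap, and the change of -1.03 did not pass (adjusted p = 0.0862). It passed in 6 of the 18 other settings, where its adjusted p was lowest with the exocrine pancreas score as a covariate (0.00597).

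Genes of acid- and enzyme-secreting cells of the stomach read from dim to bright. The proton pump genes Atp4a and Atp4b, defining markers of parietal cells, read 4.86 ± 0.06 and 5.80 ± 0.12 in KO intestines, against 4.94 ± 0.11 and 5.81 ± 0.16 in Ctrl intestines (SD, n = 4 each). Intrinsic factor, Cblif, read 4.55 ± 0.32 in KO intestines and 4.80 ± 0.48 in Ctrl intestines, and the gastric lipase gene Lipf 3.25 ± 0.14 in KO intestines and 3.34 ± 0.23 in Ctrl intestines. These 4 lie near or below the array medians, and without detection calls such levels cannot be told from background. Other genes of the list, which are not limited to stomach cells, were brighter. The potassium channel gene Kcnq1 read 9.17 ± 0.15 in KO intestines and 9.25 ± 0.15 in Ctrl intestines, Clic6 8.95 ± 0.08 in KO intestines and 9.03 ± 0.17 in Ctrl intestines, and Gpr155 8.94 ± 0.58 in KO intestines and 9.36 ± 0.62 in Ctrl intestines (SD, n = 4 each). Bhlha15, a transcription factor of secretory cells, read 7.30 ± 0.19 in KO intestines and 7.58 ± 0.24 in Ctrl intestines. From the gland list, the pepsinogen gene Pgc read 7.32, 7.05, 7.39 and 7.04 in KO samples 1 to 4, against 7.02, 7.98, 8.41 and 6.53 in Ctrl samples 1 to 4. Of the 14 measured genes in the parietal and chief cell list 0 were called and 12 were below 0 (median -0.09). With the score of this list as a covariate the changes were -1.07 and -0.87 for the probe sets of Gkn1, -0.73 for Gkn2, -0.97 for Tff1, -1.37 for Muc1 and -0.48 for Dmbt1. Each was over 1.5 times its size without it, which for Dmbt1 was -0.019, and 0 were called. The score was lower in every KO sample than in every Ctrl sample, so it partly stands in for the group in this fit.

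The 3 gastrokine genes lie side by side on mouse chromosome 6, at 87345653 to 87388935 in GRCm38.p6, a span of 43.28 kb with no other annotated gene in the RefSeq table. Since Gkn1 and Gkn2 varied together while their neighbour Gkn3 did not, the 250 bases upstream of each start are shown (RefSeq, GRCm38.p6). They are Gkn1 at chr6:87350916-87351165 on the minus strand, Gkn2 at chr6:87373115-87373364 on the plus strand and Gkn3 at chr6:87388936-87389185 on the minus strand, each written 5′ to 3′ in the direction of its gene. Capitals mark TAAT or ATTA, the core letters that homeodomain proteins such as Pdx1 bind, and GATAAG or CTTATC, letters bound by GATA factors.
Gkn1: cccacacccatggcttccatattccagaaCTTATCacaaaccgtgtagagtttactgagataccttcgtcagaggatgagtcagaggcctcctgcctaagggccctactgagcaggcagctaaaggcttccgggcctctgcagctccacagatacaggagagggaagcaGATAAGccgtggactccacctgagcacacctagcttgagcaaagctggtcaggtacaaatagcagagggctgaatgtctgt
Gkn2: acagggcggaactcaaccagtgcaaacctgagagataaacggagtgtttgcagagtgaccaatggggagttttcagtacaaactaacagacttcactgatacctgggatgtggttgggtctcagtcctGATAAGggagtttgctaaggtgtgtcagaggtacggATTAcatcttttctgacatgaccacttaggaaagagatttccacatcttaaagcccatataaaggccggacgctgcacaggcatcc
Gkn3: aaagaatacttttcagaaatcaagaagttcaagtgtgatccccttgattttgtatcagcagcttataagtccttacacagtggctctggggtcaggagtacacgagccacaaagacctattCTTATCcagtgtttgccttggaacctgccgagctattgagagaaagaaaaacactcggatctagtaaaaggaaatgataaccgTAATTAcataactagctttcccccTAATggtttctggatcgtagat

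GATAAG, on either strand, occurred in all 3 windows, 2 times for Gkn1 and 1 time each for Gkn2 and Gkn3. Over 32851 RefSeq promoter windows of the same length 6.55% hold it. TAAT occurred 0 times for Gkn1, 1 time for Gkn2 and 3 times for Gkn3, where 2 of the matches overlap in TAATTA, and 54.9% of windows hold it. In all, 9 motifs were searched on both strands (TAAT and TAATTA for homeodomain proteins, GATAA and GATAAG for GATA factors, TATAAA as the TATA box, TGTTTAC and TGTTTGC for forkhead factors, CACCTG as an E-box, and the CCAAT box), and the marked pair was chosen after the matches were seen. Promoter entries matched 6 of the 10 genes. A match describes letters only.

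Across the 8 samples the genes fell into sets that varied together. Of 36 pairs among the 9 genes, each compared after subtracting the group means, 7 passed an exact permutation test of r after Benjamini-Hochberg adjustment. Exact here means that every order of the 8 samples was used, without regard to group. Since the spread of several genes differed between the groups, these p-values are approximate. By rho 4 passed, and with group means kept 5 passed by r. Tff2 and Gkn3 were ranked identically (r = 0.984, exact permutation p = 4.96e-05, adjusted p = 0.00179; rho = 1 with p = 5e-05, the smallest this rank test can give). Without KO 2 and KO 3, farthest from the median of Tff2 once group means were subtracted, r was 0.968. The low sample KO 1 stayed in. Gkn1 correlated with Gkn2 (r = 0.994, exact permutation p = 2.23e-04, adjusted p = 0.00246; rho = 0.929 with p = 0.00223). Without Ctrl 1 and Ctrl 2 that r was 0.952.

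The other pairs that passed tied the surface products together, and 1 tied Dmbt1 to Muc1. Tff1 correlated with Gkn1 (r = 0.981, exact permutation p = 1.24e-04, adjusted p = 0.00223; rho = 0.952 with p = 0.00114). It did so with Gkn2 as well (r = 0.965, exact permutation p = 0.00213, adjusted p = 0.0128; rho = 0.881 with p = 0.00724). Without Ctrl 1 and Ctrl 2 these r values were 0.867 and 0.710. Muc5ac correlated with Tff1 (r = 0.883, exact permutation p = 2.73e-04, adjusted p = 0.00246; rho = 0.905 with p = 0.00456) and with Gkn1 (r = 0.798, exact permutation p = 0.00471, adjusted p = 0.0242; rho = 0.833 with p = 0.0154). Without KO 3 and Ctrl 2 they were 0.837 and 0.666. With group means kept, Muc5ac and Gkn1 did not pass (r = 0.812, exact permutation adjusted p = 0.0524). Muc5ac with Gkn2 did not pass (r = 0.780, exact permutation adjusted p = 0.05625). The p-values printed with rho are unadjusted. By rho, Gkn2 with Tff1 (exact permutation adjusted p = 0.0521) and Muc5ac with Gkn1 (0.0791) did not pass. Tff2 and Gkn1, products of the different cell classes, had r = 0.257 (exact permutation p = 0.567, adjusted p = 0.704; rho = 0.238 with p = 0.582), and 0.411 without KO 2 and KO 3.

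**Figure D4:**
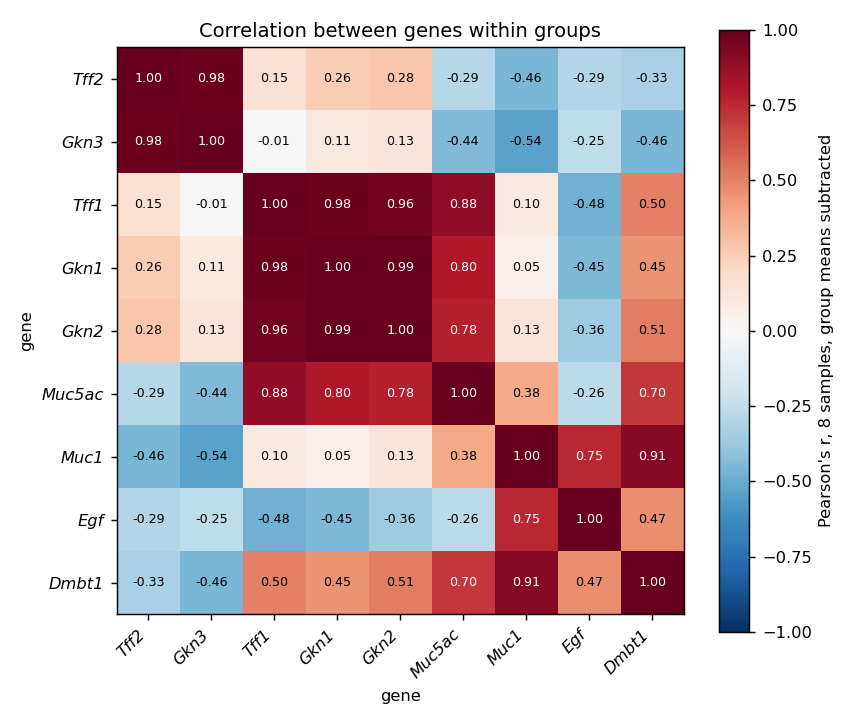
Pearson's r between the brightest probe sets of the 9 genes over the 8 samples, with group means subtracted, from -1 (blue) to 1 (red). Tff2 with Gkn3 (0.98) and the square of Tff1, Gkn1, Gkn2 and Muc5ac (0.78 to 0.99) stand out, as does Muc1 with Dmbt1 (0.91).

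Muc1, a mucin anchored in the apical membrane of many epithelia including those of stomach and pancreas, had the largest difference of the 11. It read 5.95, 6.44, 7.50 and 6.08 in KO samples 1 to 4, against 7.53, 7.35, 6.43 and 7.25 in Ctrl samples 1 to 4. KO 3 lay among the high controls and Ctrl 3 among the low knockouts. The change was -0.65 with a standard error of 0.33 (adjusted p = 0.737 in limma), and it was -0.98 without KO 3 and -0.88 without Ctrl 3.

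Egf, the founding ligand of the epidermal growth factor receptor and a product of Brunner glands in rodents, was dim. Its probe set read 3.79, 3.98, 4.41 and 4.20 in KO samples 1 to 4, against 5.19, 4.48, 4.11 and 4.72 in Ctrl samples 1 to 4. Only Ctrl 3 lay within the range of the knockouts, and all 8 values were below the array medians. The change of -0.53 had a 95% interval from -0.998 to -0.07 and did not pass (adjusted p = 0.676 in limma). With values under 5 set to 5 it was -0.05, and a dim level of this kind carries an unknown share of background.

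Muc1 and Egf varied with the exocrine pancreas score of the samples, without passing adjustment. The exocrine pancreas score, from 19 measured genes of which 18 were below 0 and 0 called (median -0.33), was -0.62, -0.48, 0.57 and -0.37 in KO samples 1 to 4. In Ctrl samples 1 to 4 it was 0.70, 0.40, -1.28 and 1.07. KO 3 and Ctrl 3 departed from their groups in this score in the same direction as in Muc1. Over the 8 samples, with group means subtracted, r with the score was 0.824 for Muc1 (exact permutation p = 0.0118, rho = 0.833 with p = 0.0154) and 0.804 for Egf (exact permutation p = 0.0166, rho = 0.738 with p = 0.0458). Adjusted over the 27 relations both p-values were 0.112, so neither passed. Without Ctrl 3 and Ctrl 4 the values were 0.952 for Muc1 and 0.778 for Egf. With the score as a covariate the change of Muc1 was -0.38 (adjusted p = 0.573 in limma) and that of Egf -0.37 (0.413). The part of pancreatic tissue in these values was not tested.

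**Figure D5:**
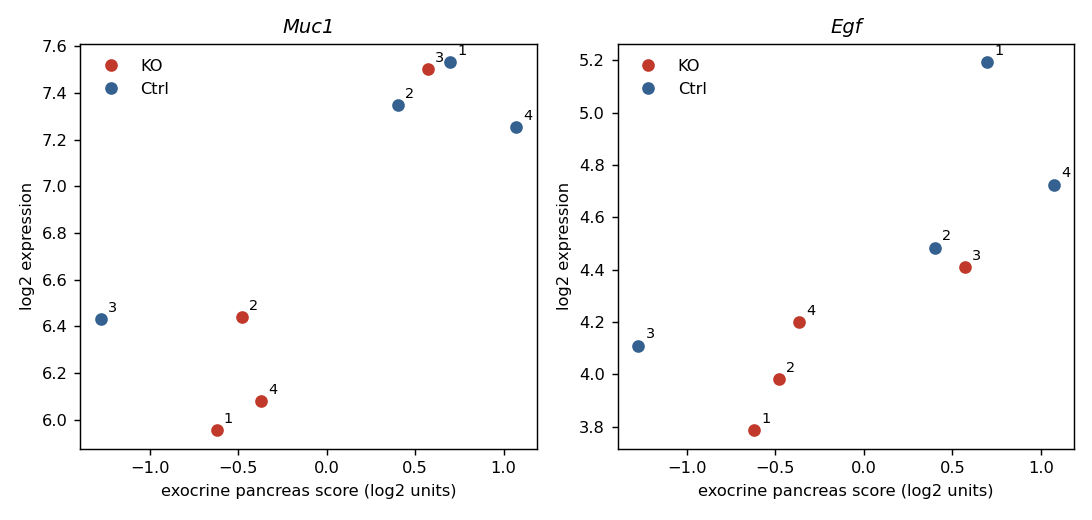
Log2 expression of Muc1 (left panel) and Egf (right panel) against the exocrine pancreas score of each sample, with KO and Ctrl samples in different colours and replicate numbers beside the points. KO 3 (score 0.57) and Ctrl 3 (score -1.28) lie away from the rest of their groups on both axes for Muc1.

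The genes nearest to Egf in the same search were Ankrd28 (r = 0.992), Ptf1a (0.992), Ero1b (0.984), Gatm (0.984) and Nthl1 (0.975). Ptf1a encodes a transcription factor of the exocrine pancreas, and it read 5.15, 5.28, 5.94 and 5.72 in KO samples 1 to 4, against 6.82, 5.61, 5.17 and 6.03 in Ctrl samples 1 to 4. Its change was -0.38 (adjusted p = 0.8295 in limma).

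The other ligands and the receptors of the Egf family gave 0 called genes. Of 9 measured ligands 4 were below 0 and the median change was 0.0058. Epiregulin, Ereg, read 6.99, 6.84, 7.08 and 7.51 in KO samples 1 to 4, against 6.63, 6.66, 6.03 and 6.50 in Ctrl samples 1 to 4, without overlap. Its change of 0.65 did not pass (adjusted p = 0.520 in limma). Nrg3, which was dim, had -0.24, also without overlap (adjusted p = 0.619). Betacellulin, Btc, had 0.15 and Hbegf 0.16. Of 14 genes for the receptors and their control 5 were below 0 (median 0.04), among them Rhbdf1 at -0.25, while Lrig3 had 0.18 and the receptor gene Egfr read 8.14 ± 0.23 in KO intestines and 8.22 ± 0.18 in Ctrl intestines (SD, n = 4 each).

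Dmbt1, a secreted scavenger receptor protein that binds bacteria at mucosal surfaces, showed the smallest difference. It read 13.45, 13.75, 14.18 and 13.56 in KO samples 1 to 4, against 13.75, 14.02, 13.52 and 13.72 in Ctrl samples 1 to 4. The change was -0.019 with a 95% interval from -0.36 to 0.32 (adjusted p = 0.988 in limma), and the ratio's interval ran from 0.777 to 1.25. KO 3 and Ctrl 2 were the high sample of each group. Over the samples Dmbt1 varied with Muc1 (r = 0.907, exact permutation p = 0.00139, adjusted p = 0.0100; rho = 0.857 with p = 0.0107), and without KO 3 and Ctrl 2 r was 0.886. The call was lost by rho (exact permutation adjusted p = 0.0643) and with group means kept (r = 0.793, adjusted p = 0.0664).

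Genes of inducible epithelial defence held no call either. Of 18 measured, 8 were below 0 and the median was 0.08. Reg3g, an antibacterial lectin named here after its values were seen, read 11.98, 13.14, 14.67 and 13.27 in KO samples 1 to 4, against 13.00, 13.67, 12.36 and 11.49 in Ctrl samples 1 to 4. KO 3 and Ctrl 2 were its high samples too. The lectin Reg1 read 13.92 ± 0.15 in KO intestines and 14.24 ± 0.04 in Ctrl intestines (SD, n = 4 each), did not overlap, and had a change of -0.32 that did not pass (adjusted p = 0.515 in limma).

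Mucins and mucus proteins of the intestine itself gave 0 called genes. Tff3, the trefoil peptide of goblet cells, read 13.77 ± 0.06 in KO intestines and 13.67 ± 0.06 in Ctrl intestines (SD, n = 4 each; change 0.10, adjusted p = 0.785 in limma). Muc2, the gel-forming mucin of goblet cells, had 0.10 (adjusted p = 0.910). Among 17 measured goblet genes 12 were below 0 with a median of -0.07, and the kallikrein Klk1, which the pancreas also makes, had the smallest p at a change of -0.92 (adjusted p = 0.355). Among 9 other mucins 5 were below 0 (median -0.10), with Muc3 at -0.98 (adjusted p = 0.792).

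Enzymes that build mucin O-glycans and transcription factors of stomach and foregut held 0 calls. Of 26 O-glycan genes 15 were below 0 with a median of -0.02. C1galt1c1, the chaperone of the core 1 enzyme, had 0.19 and the sialyltransferase St6galnac2 -0.29 (adjusted p = 0.684 for each in limma). Of 23 transcription factors 13 were below 0 (median -0.02). Foxq1, needed for Muc5ac in mouse stomach surface cells, read 8.17, 7.82, 7.31 and 7.95 in KO samples 1 to 4, against 8.12, 8.60, 8.60 and 8.85 in Ctrl samples 1 to 4. Its values overlapped only through KO 1 and Ctrl 1, and the change of -0.73 did not pass (adjusted p = 0.520). Hnf4g had 0.28 (0.561), Onecut2 -0.26 (0.662) and Meis1 -0.26 (0.676).

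Enterocyte markers were bright in the labelled tissue, and their 10 measured genes read between 11.997 and 14.73 in every sample. Exocrine pancreas genes reached 14.78 in the same arrays, so bright enterocyte genes do not show that other tissue was absent. Of the 10 enterocyte genes 9 were above 0 and 0 were called, with a median of 0.18. In 7 the KO and Ctrl values were apart, against 4.35% of all genes. The immune list had 8 of 10 above 0 (median 0.07) and 0 called.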

How the data were processed

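RNA from 8 intestines was read on Affymetrix arrays, 1 per mouse. The authors deposited log2 expression values per probe set. The submitters' processing notes name Partek 6.4 without a role. How background was corrected and arrays were summarised and normalized is not given in the sources used here. That values are log2 was inferred from their range. Precision is limited by the number of arrays, and array medians this alike hide any shift of all transcripts together.

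Of 45101 probe sets, 64 array controls were left out. GEO's platform annotation gave 34945 probe sets 1 symbol, 932 several and 9160 none. Positions and promoters are from RefSeq tables of GRCm38.p6. KO minus Ctrl was fitted over 45037 probe sets in limma 3.58.1 (R 4.3.3; lmFit, eBayes), without covariates, two-sided, with Benjamini-Hochberg adjustment over all and 95% intervals. A gene in a list is its probe set with the highest mean. Correlations had two-sided permutation tests over every order of the samples, across both groups, so p-values with group means subtracted are approximate. The fit was tested on simulated data. Plots used matplotlib 3.10.9. The labels call the samples biological replicates.

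The genes and lists were chosen with earlier results of these data known. Named were all probe sets of the studied genes, up to 4 genes with the smallest p per list, and the 5 genes most alike to Tff2 and to Egf. Named outside this rule, after their values were seen, were A4gnt, Wfdc2, Cftr, Cldn18, Anxa10, Psca, Tspan8, Atp4a, Atp4b, Cblif, Lipf, Egfr, Reg3g, Muc2, Kcnq1, Clic6, Pgc, Pax6 and Cckbr. Saa1, Saa3, Lcn2, Sftpa1, Cd3g, Cd8a, Fut2, C1galt1, Galnt2, Gcnt3, B4galnt2, Tgfa, Adam17, Six2, Nkx6-3 and Foxa1 were named in the same way. Alternatives were a replicate block, quantile normalization, median centring, a minimum brightness, values under 5 set to 5, array weights, a prior with trend and robust estimation, ordinary least squares, 2 scores as covariates, a threshold of 0.1, gene means and each sample left out. Correlations with scores, and list genes under each setting, were added after the data were seen.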

Additional observations from a re-analysis of the deposited data

Results flagged for a closer look

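None of the 11 probe sets had a sample past Dixon's 95% limit in its group. With 4 values this limit flags only a wide gap, and leaving out Ctrl 2 still turned the sign of Gkn2, Tff1 and Muc5ac. Among 142 groups of 4 values, from the 11 probe sets and the genes named by rule, 6 had a highest or lowest sample set apart by more than Dixon's 95% limit, and chance alone flags about 1 in 20. Gsdmc2 read 8.69 in Ctrl 3, while the other controls lay between 4.09 and 4.79. Bhlha15, a transcription factor of secretory cells, read 7.58 in KO 3, against 7.19 to 7.21 in the other knockouts, and Clps, pancreatic colipase, read 13.49 there, against 13.01 to 13.09. Gpr155 read 8.07 in KO 3, below 9.20 to 9.27 in the other knockouts. Kcne2 read 3.65 in KO 2, against 3.44 in each of the other knockouts, at the bottom of the scale. Nos2 read 5.80 in Ctrl 2, against 5.06 to 5.16 in the other controls.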

How the results depend on the processing

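The counts of called probe sets among the 11, 0 lower and 0 higher, were the same in all 18 other settings and at an adjusted p under 0.1. The gene count was also 0 when a gene's probe sets were averaged. The lowest adjusted p in any setting was 0.0748, for Muc5ac with the parietal and chief cell score as a covariate. The values of that score span only -0.12 to 0.08 and do not overlap between the groups. With that covariate the sign turned for Tff2 (0.12) and Gkn3 (0.37 and 0.35), and the other changes ran from -1.37 for Muc1 to -0.48 for Dmbt1 besides Muc5ac. The exocrine pancreas score turned Dmbt1 to 0.0735. Leaving out single samples gave -0.46 to -0.16 for Tff2, -0.72 to -0.22 and -0.72 to -0.21 for Gkn3, -0.57 to -0.03 and -0.48 to -0.02 for Gkn1, -0.36 to 0.0675 for Gkn2, -0.42 to 0.11 for Tff1, -0.62 to 0.0321 for Muc5ac, -0.17 to 0.0746 for Dmbt1, -0.71 to -0.35 for Egf and -0.98 to -0.47 for Muc1. The cause was not tested.

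Over all probe sets 19 were called, 4 with a floor at 5, 2 in an ordinary linear model, 29 at an adjusted p under 0.1, and 13 to 20 with single samples left out. Of 211 list genes 34 had an unadjusted p under 0.05 in limma, where 7.13% of all probe sets passed. They included 6 of 10 enterocyte, 5 of 15 smooth muscle and 5 of 23 transcription factor genes. After adjustment 0 of the 211 were called. There was 1 after quantile normalization, a trended and robust prior or array weights, 1 at 0.1, and 2 with the pancreas score. Leaving out single samples gave 0 to 2. These were Sult1c2 and Klk1. No member correlation passed without the 2 samples farthest from the median of 1 gene of the pair, group means subtracted (0). With 6 samples the smallest adjusted p a single pair can reach is 0.05. With group means kept 5 of the 7 pairs passed, without Muc5ac with Gkn1 (0.0524) and Dmbt1 with Muc1 (0.0664), and r of the pancreas score and Gkn1 was 0.0521 in place of -0.06. The replicate block left the 11 uncalled and gave 24 calls over all probe sets. Whether same-numbered samples are pairs is not given in the labels. Same-numbered samples had correlations of deviations of -0.09, -0.12, -0.18 and 0.08, and 0 knockouts correlated best with their own number. So few values cannot decide whether the samples are paired.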
